A study of Canis lupus familiaris with 12 samples.

Results

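The proteasome genes were followed in the right atria of control and rapidly paced dogs. They were taken from the mRNA table as every gene whose symbol begins with PSM, followed by a letter from A to G and a digit. This rule found 44 of the 19856 genes listed, or of the 15121 that carry a symbol. The 44 rows hold 42 symbols, because PSMB3 and PSMC1 are each listed at 2 positions, and 1 of the symbols, PSMC3IP, encodes a recombination cofactor and no part of the proteasome. In 40 of the rows (39 symbols) the mean over the libraries was 1 FPKM or more (fragments scaled to transcript length and to the depth of the library), and these were tested. Genes named PSMA1, PSMA2, PSMA4, PSMC3, PSMD5, PSMD9 and PSMG4 were not analysed here, as no row carried these symbols.

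The proteasome degrades proteins that have been tagged with ubiquitin. Its barrel, the 20S core, is a stack of alpha rings and beta rings, and the beta subunits inside carry the proteolytic sites. A 19S cap sits on the end of the barrel: its base of ATPases unfolds the substrate and threads it in, and its lid removes the ubiquitin chain. Alternative caps, assembly chaperones and an interferon-inducible set of beta subunits complete the family. In heart muscle the ubiquitin-proteasome system takes part in the turnover of sarcomere proteins and ion channels.

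The study used mongrel dogs of either sex. Dogs of the pacing group received continuous right atrial stimulation at a rapid rate for 14 days, and dogs of the control group underwent the same operation and kept a pacemaker that gave no stimulation. Total RNA of the right atrium, depleted of ribosomal RNA, was sequenced in 3 libraries of each group, which came from separate dogs. No age or strain beyond this is given.

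Column headers in the tables read C1, C2 and C4 for 3 libraries and P1, P2 and P3 for the other 3, but the sample titles run from C1 to C6, and the treatment label of the one titled C4 is pacing. The column C4 was taken as a control by its letter, and the main results are also given without it. C4 further stood apart in its tissue markers: the 4 atrial markers listed (NPPA, MYL4, GJA5 and KCNA5) summed to 36.1 FPKM in C4 and to between 2636 and 12978 FPKM in the other libraries, while 4 ventricular markers (MYL2, MYL3, MYH7 and IRX4) summed to 7995 FPKM in C4 and to between 194 and 852 FPKM elsewhere. KCNA5 by itself did not set C4 apart, at 0.539 FPKM there and 0.524 FPKM in C2. Markers of heart muscle as a whole summed to between 3083 and 5256 FPKM in every library. The 4 adipocyte markers summed to 523 FPKM in C1, 215 FPKM in C2 and 0.813 FPKM in C4, against 3.40 to 7.16 FPKM in the pacing libraries. The relative depth of the mRNA libraries, read from the steps between low FPKM values, was 0.53 to 0.61 of that of P3 in the control libraries and 0.72 to 1 in the pacing libraries, so low values are less certain in the controls. In whole tissue, fewer cells of a type and less RNA per cell cannot be told apart.

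Taken over the family, proteasome mRNAs lay lower in the pacing libraries, by amounts that were small and did not pass the test. The log2 fold change (pacing over control, on log2 of FPKM plus 1) was below 0 for 37 of the 40, against 53.3% of the 11583 genes tested. The median was -0.21, with a quartile range from -0.32 to -0.10, beside -0.03 over all genes. These medians equal folds of 0.867 and 0.980. The count of members below 0 depended on the scaling. It was 34 with the median of all genes aligned between libraries and 29 with quantile normalization. The median over all genes was 0.02 under both. With limma, 0 of the 40 passed an adjusted p of 0.05 (smallest adjusted p = 0.879), where 0.0259% of all genes (3) passed. At an unadjusted p under 0.05, 2 members were lower, PSME3 and PSMG1, where 3.02% of all genes were lower, and 0 were higher, where 2.52% of all genes were higher. The 95% interval of the log2 fold change held 0 for the other 38.

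In 12 of the 40 every control library lay above every pacing library, against 6.14% of all genes, and in 0 every pacing library lay above, against 4.9% of all genes. The 12 were PSMB7, PSMC1 (chromosome 8), PSMC5, PSMD6, PSMD7, PSMD11, PSMD12, PSMD13, PSMD14, PSME3, PSME4 and PSMG1. The members were measured in the same 6 libraries and are not independent of each other. This count depended on the scaling: with the median of all genes aligned between libraries it was 4 (PSMD3, PSMD7, PSMD13 and PSME3), against 6.36% of all genes, and with quantile normalization it was 2 (PSMB9 and PSME3), against 6.66% of all genes. PSME3 was the only member on all 3 of these lists.

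**Figure D1:**
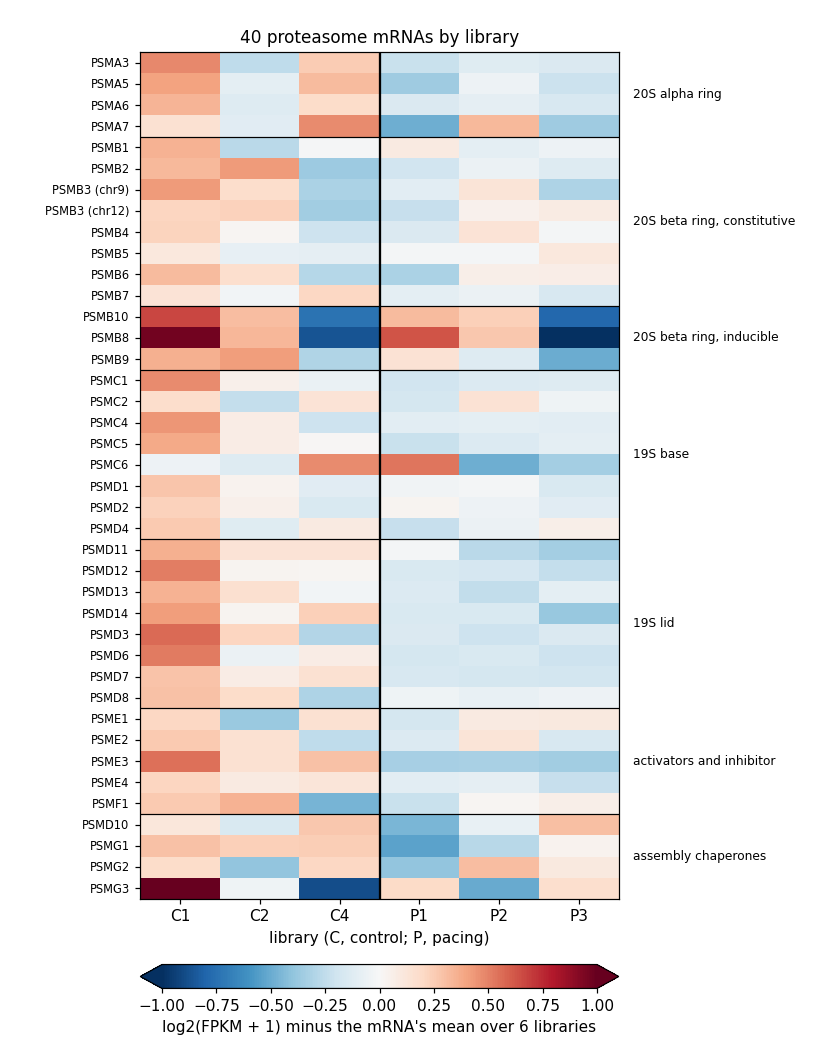
Heatmap of the 40 tested proteasome mRNAs (rows, grouped by their place in the proteasome) in the 6 libraries (columns, control C1, C2, C4 and pacing P1, P2, P3). Colour is log2(FPKM + 1) minus the mean of that mRNA over the libraries, and saturates at -1 and 1. C1 is the highest library for 31 of the 40 rows, and the inducible beta subunits are low in C4 and P3.

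The control libraries were not alike. C1 was the highest library for 31 of the 40 members (77.5%), whereas it was the highest for 27.1% of all genes. C2 was the highest for 4 members (10%), against 29.5% of all genes, and C4 for 2 (5%), against 9.95%. Each pacing library was the highest for 1 member (2.5%), against 9.2% of all genes in P1, 9.93% in P2 and 14.3% in P3. The FPKM of the 40 members summed to 1665 in C1, 1356 in C2 and 1304 in C4, and to 1173, 1271 and 1198 in P1, P2 and P3. The mean of the sums was 1442 ± 195 FPKM for the controls and 1214 ± 50.8 FPKM for the paced dogs (SD, n = 3 libraries each). Every control sum lay above every pacing sum, with C4 33.4 FPKM above P2, so that the gap between the groups was smaller than the gap between C1 and the other control libraries.

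**Figure D2:**
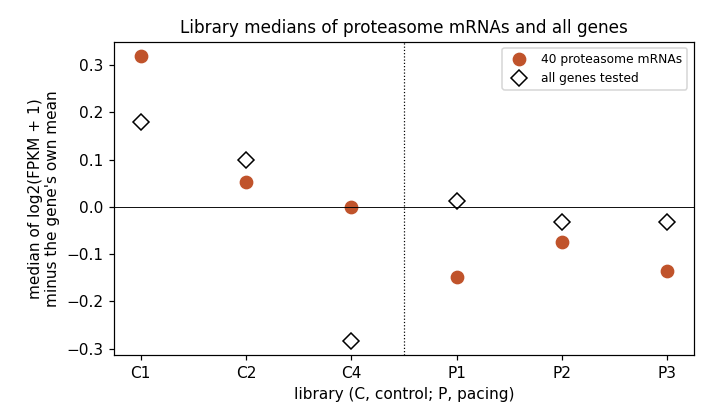
Median over the 40 proteasome mRNAs (filled circles) and over the 11583 genes tested (open diamonds) of log2(FPKM + 1) minus the gene's own mean, in each library. The proteasome median is 0.32 in C1, 0.05 in C2 and 0.00 in C4, and lies between -0.15 and -0.07 in the pacing libraries. The median of all genes is 0.18 in C1 and -0.28 in C4.

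Without C4, the log2 fold change was below 0 for 36 of the 40 members, against 63.8% of all genes, with a median of -0.33 beside -0.16 over all genes. The groups did not overlap for 24 members, among them all 12 of the above, against 26.7% of all genes. At an unadjusted p under 0.05, 4 were lower (PSMB2, PSMD3, PSMD13 and PSME3), which is 10% of the members against 12.7% of all genes, and 0 were higher, against 2.61%. In the other direction the groups did not overlap for 0 members, against 7.84% of all genes. Again 0 passed the adjusted threshold (smallest adjusted p = 0.223 from limma), where 0.171% of all genes passed. Without C1, 27 of the 40 were below 0, and the median was -0.13 beside 0.05 over all genes.

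**Figure D3:**
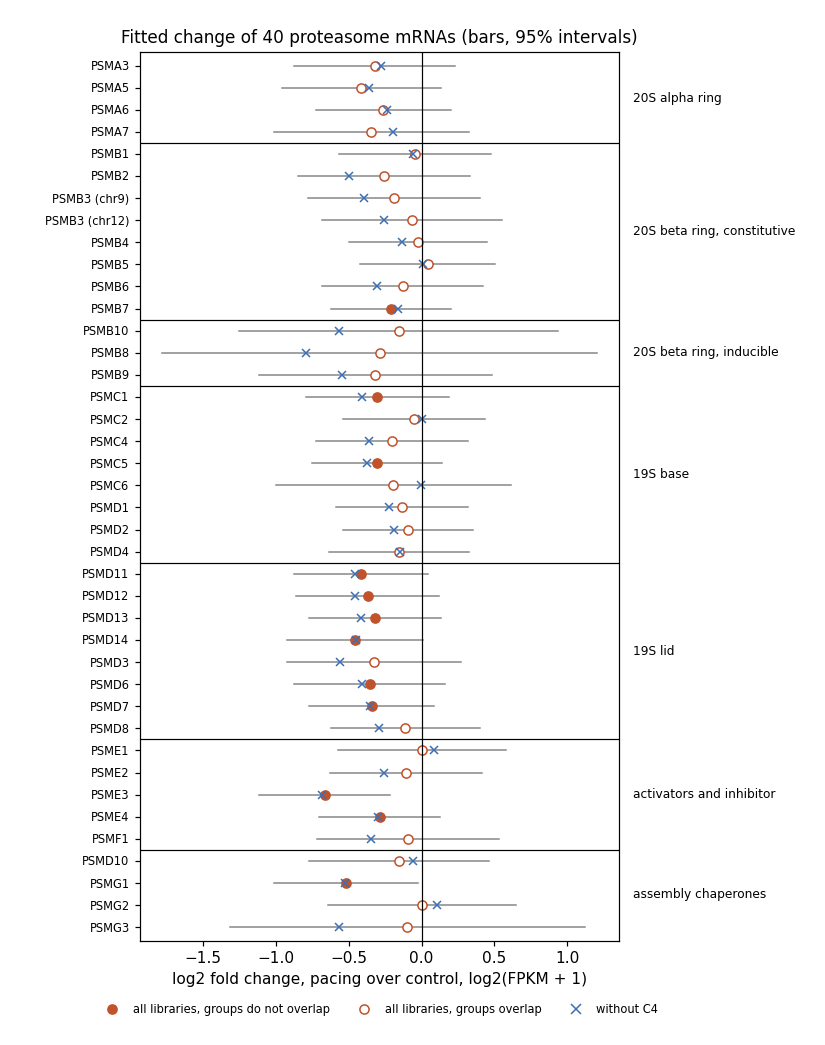
Log2 fold change of each tested proteasome mRNA, pacing over control, with its 95% interval from limma (circles and bars), and the value without C4 (crosses). Filled circles mark the 12 members whose groups do not overlap. Most circles lie between -0.5 and 0, and the intervals of PSME3 and PSMG1 are the only 2 that end below 0.

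The alpha ring forms the outer gate of the 20S barrel. All 4 of its tested members had log2 fold changes below 0, from -0.41 for PSMA5 to -0.26 for PSMA6, with a median of -0.33. Of the 4, 0 separated the groups, where 6.14% of all genes did so and were lower in pacing. PSMA6, at 14023353 to 14037973 on chromosome 8 (canFam3, positions as the table lists them), had the highest mean of the family. It measured 112, 81.1 and 100 FPKM in C1, C2 and C4 (the order of all values that follow), and 79.8, 83.1 and 79.2 FPKM in P1, P2 and P3. C2 lay within the range of the pacing libraries, and the log2 fold change of -0.26 (standard error 0.20) did not pass (adjusted p = 0.892 from limma). PSMA8, an alpha subunit known from germ cells, was listed at 0 in all 6 libraries.

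The beta ring holds the active sites, and its constitutive members had log2 fold changes from -0.26 to 0.04. PSMB5, the chymotrypsin-like subunit (chromosome 8, 3342702 to 3350177), measured 11.2, 9.71 and 9.68 FPKM in the controls, and 10.2, 10.2 and 11.2 FPKM after pacing. The ranges overlapped, at a log2 fold change of 0.04 with a 95% interval from -0.42 to 0.51 (adjusted p = 0.982 from limma). It was the highest log2 fold change in the family and 1 of 3 above 0.

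PSMB6, the caspase-like subunit (chromosome 5, 31776234 to 31778833), measured 67.5, 60.7 and 44.2 FPKM in the controls, and 43.1, 56.3 and 56.5 FPKM after pacing. C1 and C2 lay above the pacing libraries and C4 among them, and the log2 fold change was -0.13 (-0.31 without C4). PSMB7, the trypsin-like subunit (chromosome 9, 58529718 to 58593016), measured 71.6, 64.0 and 75.3 FPKM against 60.7, 62.5 and 58.3 FPKM. Here the groups did not overlap, with C2 and P2 only 1.51 FPKM apart, and the log2 fold change of -0.21 (standard error 0.18) did not pass (adjusted p = 0.896 from limma).

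Among the beta subunits without a catalytic site, PSMB4 had the second-highest mean of the family. It measured 90.9, 79.0 and 67.5 FPKM in the controls, and 70.3, 85.6 and 76.7 FPKM after pacing, which overlapped, at a log2 fold change of -0.02 (95% interval from -0.50 to 0.45). The constitutive beta ring as a whole had a median of -0.10 over 8 rows. Of these, 7 were below 0 and 1 separated the groups (against 6.14% of all genes).

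When cells meet interferon, PSMB8, PSMB9 and PSMB10 replace PSMB5, PSMB6 and PSMB7 and form the immunoproteasome, which favours peptides that fit MHC class I. These 3 mRNAs varied widely between libraries of the same group. PSMB8 (chromosome 12, 2419455 to 2422832) measured 15.5, 9.62 and 3.65 FPKM in the controls, and 12.1, 9.19 and 2.36 FPKM after pacing. PSMB10 (chromosome 5, 81561174 to 81563512) measured 6.08, 4.52 and 1.68 FPKM, against 4.56, 4.25 and 1.59 FPKM. PSMB9 (chromosome 12, 2432578 to 2441456) measured 1.72, 1.84 and 0.725 FPKM, against 1.35, 0.947 and 0.503 FPKM.

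In each of the 3, C4 was the lowest control library and P3 the lowest of all, and the groups overlapped. The log2 fold changes were -0.29 for PSMB8, -0.16 for PSMB10 and -0.32 for PSMB9, with standard errors of 0.63, 0.47 and 0.34 (adjusted p from 0.904 to 0.966, limma). Those of PSMB8 and PSMB10 were above 0 without P3, at 0.31 and 0.20, and also without C1. The ratio of PSMB8 to PSMB5 ran from 0.377 to 1.38 in the control libraries and from 0.210 to 1.19 in the pacing libraries.

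C4 and P3 were also the libraries with the lowest sums of leukocyte markers. The 8 leukocyte markers listed (among them PTPRC, TYROBP, LAPTM5 and CSF1R) summed to 165, 491 and 65.2 FPKM in C1, C2 and C4, and to 307, 126 and 25.1 FPKM in P1, P2 and P3. In PTPRC, C4 (10.3 FPKM) lay above C1 (8.25 FPKM) and P2 (8.58 FPKM), while in each other marker listed C4 and P3 were the lowest. C1, the highest library for PSMB8 and PSMB10, was the third of the 6 for the sum. The part of leukocytes in the values of the inducible subunits was not tested. PSMB11, the beta subunit known from the thymus, was listed at 0 in all 6 libraries.

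**Figure D4:**
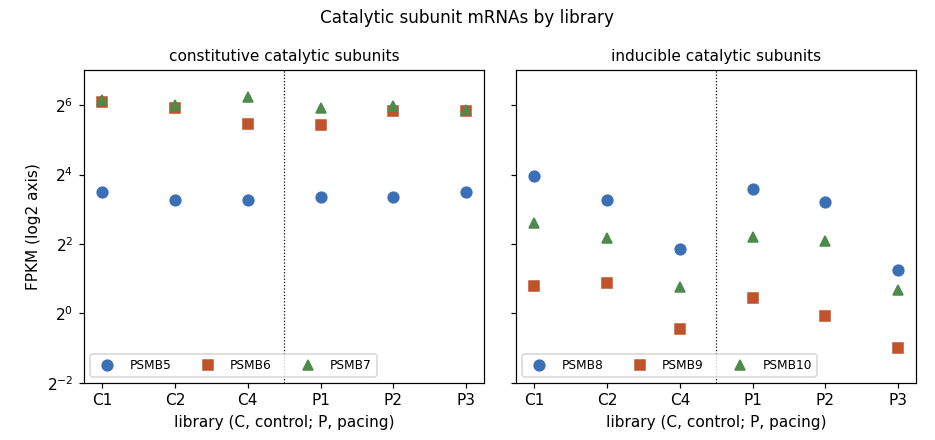
FPKM of the constitutive (left) and inducible (right) catalytic subunits in each library, on a log2 axis. PSMB5 stays between 9.68 and 11.2 FPKM in all 6 libraries, while PSMB8 ranges from 2.36 FPKM in P3 to 15.5 FPKM in C1, with PSMB9 and PSMB10 low in C4 and P3 as well.

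The base of the 19S cap consists of the ATPases PSMC1 to PSMC6 with the large scaffold proteins PSMD1 and PSMD2 and the ubiquitin receptor PSMD4. All 8 of its tested rows were below 0, from -0.31 for PSMC5 to -0.05 for PSMC2, with a median of -0.17. Of the 8, PSMC1 and PSMC5 separated the groups, against 6.14% of all genes. PSMC5 measured 81.5, 65.9 and 62.9 FPKM in the controls, and 53.4, 56.9 and 58.3 FPKM after pacing, so the lowest control library lay above the highest pacing library (log2 fold change -0.31, standard error 0.19, adjusted p = 0.892 from limma). PSMD1 and PSMD2 overlapped between the groups, at 28.1 to 38.1 and 45.4 to 59.5 FPKM over the 6 libraries, with log2 fold changes of -0.13 and -0.09. Without C4 these were -0.22 and -0.19, and the groups did not overlap in either, against 26.7% of all genes.

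The lid had the most members whose groups did not overlap. All 8 of its subunits were below 0, and 6 of the 8 separated the groups, against 6.14% of all genes. With the medians of all genes aligned 3 did (against 6.36% of all genes), and with quantile normalization 0 did (against 6.66%). The median log2 fold change was -0.35. Without C4 it was -0.43, and 8 of 8 separated the groups, against 26.7% of all genes. None of the 8 passed the adjusted threshold, or an unadjusted p of 0.05, with limma on all 6 libraries, and C1 was the highest library for all 8. Summed over the lid, the control libraries held 343, 276 and 251 FPKM and the pacing libraries 236, 227 and 223 FPKM.

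PSMD14, the deubiquitinase that cuts the ubiquitin chain from the substrate (chromosome 36, 6889623 to 6986713), had the smallest p of the lid. It measured 42.1, 31.9 and 37.1 FPKM in the controls, and 28.0, 28.0 and 23.7 FPKM after pacing. All control libraries lay above all pacing libraries, and limma gave a log2 fold change of -0.46 with a standard error of 0.20 (unadjusted p = 0.0538, adjusted p = 0.879). PSMD11, a scaffold subunit of the lid (chromosome 9, 40508903 to 40539481), measured 30.7, 26.2 and 26.1 FPKM, against 23.4, 19.5 and 18.5 FPKM. Its groups were also apart, at -0.42 with a standard error of 0.20 (unadjusted p = 0.0694, adjusted p = 0.892, limma).

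PSMD7, the partner of PSMD14 in the deubiquitinase module, was the most even of the lid mRNAs, with 21.7, 18.6 and 19.8 FPKM in the controls, and 15.7, 15.5 and 15.4 FPKM after pacing. Its log2 fold change was -0.34. PSMD12, PSMD6 and PSMD13 were at -0.37, -0.36 and -0.32, and without C1 at -0.21, -0.19 and -0.23. In PSMD3 and PSMD8 the lowest value of all belonged to C4 (21.7 and 46.3 FPKM), and their log2 fold changes went from -0.33 and -0.11 to -0.56 and -0.30 without it. Without C1 that of PSMD3 was -0.13.

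Other caps can open the barrel. PSME3, the nuclear activator PA28-gamma, which lets the core degrade some proteins without ubiquitin, had the smallest p of the family. It measured 47.6, 35.9 and 39.6 FPKM in the controls, and 25.4, 25.5 and 25.1 FPKM after pacing. The pacing libraries differed by no more than 0.455 FPKM and lay 10.4 FPKM under the lowest control library. The means were 41.0 ± 5.95 and 25.3 ± 0.232 FPKM (SD, n = 3 libraries each), a fold of 0.630, or a log2 fold change of -0.67 (95% interval from -1.12 to -0.22, unadjusted p = 0.00983, adjusted p = 0.879 from limma).

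Without C4 the log2 fold change of PSME3 was -0.69 (adjusted p = 0.223), and over all alternatives it ran from -0.75 to -0.52. The unadjusted p stayed under 0.05 with each library left out in turn, and was above it with C4 counted as pacing. The row of PSME3 (chromosome 9, 20080875 to 20247344) spans 166469 bases and overlaps 6 other rows, among them G6PC, AOC3, AOC2 and WNK4, with 4 of the 6 on the same strand. How the fragments of these rows were divided was not tested.

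**Figure D5:**
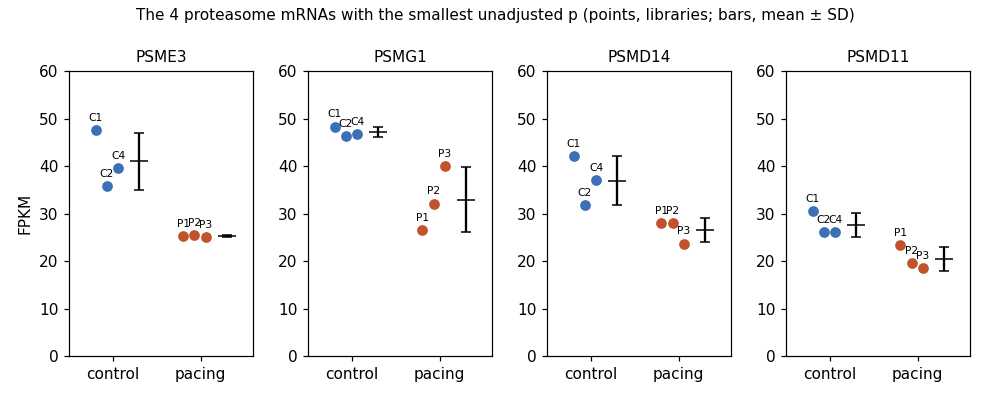
FPKM of PSME3, PSMG1, PSMD14 and PSMD11, the 4 proteasome mRNAs with the smallest unadjusted p, in each library (points), with the mean and SD of the group (bars, n = 3 libraries each). In each panel the 3 control libraries lie above the 3 pacing libraries, and the spread of the groups differs from panel to panel.

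PSME1 and PSME2 form the interferon-inducible activator PA28-alpha-beta, and they showed no such gap. PSME1 measured 10.3, 6.54 and 9.81 FPKM in the controls, and 7.62, 9.36 and 9.39 FPKM after pacing, at a log2 fold change of 0.01 (95% interval from -0.57 to 0.58). PSME2 measured 25.3, 23.4 and 17.3 FPKM, against 18.99, 23.03 and 18.67 FPKM, at -0.10 (95% interval from -0.63 to 0.42). In both, the ranges overlapped.

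PSME4, the activator PA200, measured 34.3, 31.4 and 32.1 FPKM in the controls, and 27.3, 27.6 and 24.9 FPKM after pacing. The groups did not overlap, with spreads of 2.97 and 2.70 FPKM within them, and the log2 fold change was -0.29 (standard error 0.18, adjusted p = 0.892 from limma). PSMF1, known as an inhibitor of the core, measured 42.3, 45.0 and 25.2 FPKM, against 30.1, 35.8 and 36.6 FPKM. C4 was the lowest of the 6, and the log2 fold change was -0.09, or -0.35 without C4 (adjusted p = 0.39 from limma).

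The chaperones build the barrel. PSMG1 pairs with PSMG2 to assemble the alpha ring, and whether the mRNAs of the pair differed from each other was not tested. PSMG1 (chromosome 31, 33914689 to 33926799) measured 48.4, 46.4 and 46.7 FPKM in the controls, and 26.7, 32.1 and 40.1 FPKM after pacing. The control libraries were close together and above all pacing libraries, which spread over 13.5 FPKM. The log2 fold change was -0.52 (95% interval from -1.02 to -0.03, unadjusted p = 0.0411, adjusted p = 0.879 from limma), and -0.53 without C4. The unadjusted p was under 0.05 without P3 and above it with any of the other 5 libraries left out or with the library medians aligned.

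PSMG2 measured 27.8, 18.3 and 28.4 FPKM in the controls, and 18.3, 30.4 and 26.1 FPKM after pacing. The groups overlapped, at a log2 fold change of 0.00 (95% interval from -0.65 to 0.65). PSMD10, which assists the assembly of the base, overlapped between the groups as well (-0.16). PSMG3 was low, with 4.78, 1.66 and 0.482 FPKM in the controls and 2.12, 0.931 and 2.09 FPKM after pacing, and the groups overlapped. Its log2 fold change was -0.10 (95% interval from -1.32 to 1.12, adjusted p = 0.984 from limma), or -0.57 without C4. The values of PSMG3 varied too much to be read further.

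Several rows limit the reading. The rows of PSMA7, PSMD3 and PSMD13 span between 170793 and 743179 bases and overlap 15, 9 and 9 other rows, and whether strand was used in the count is not stated. PSMC6 is listed on chromosome 32 and the second row of PSMB3 on chromosome 12, where RefSeq (assembly UU_Cfam_GSD_1.0) places no gene of that symbol, so reads shared with near-identical copies are uncertain. The second row of PSMC1, on chromosome 25, and PSMC3IP were below the minimum, at no more than 0.193 and 0.617 FPKM in any library, and were not tested.

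The genes around the proteasome were counted in 7 lists, of which 0 members passed the adjusted threshold with limma. Bound factors and assembly proteins were below 0 for 8 of 10 tested (median -0.14), and shuttle and extraction factors for 8 of 11 (median -0.11). Of the first list, ZFAND5, a proteasome-binding zinc finger protein of wasting muscle, and UCHL5, a deubiquitinase of the cap, had the smallest p, with log2 fold changes of -0.62 and -0.22. These depended on single libraries: ZFAND5 was at -0.31 without P3 and -0.92 without P1, and UCHL5 at -0.10 without C4. Of the second, NPLOC4, a cofactor of the extraction ATPase VCP, was at -0.31.

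Transcription factors and processing enzymes that control proteasome genes were below 0 for 8 of 9 tested (median -0.20). MAFF, a small MAF protein that pairs with NRF1 and NRF2, measured 14.1, 26.9 and 14.3 FPKM in the controls, and 11.4, 10.0 and 7.79 FPKM after pacing. The groups did not overlap, where 6.14% of all genes were apart and lower in pacing. MAFF was the only gene of the 7 lists at an unadjusted p under 0.05, where 3.02% of all genes were lower and 2.52% higher. Its log2 fold change was -0.81 (unadjusted p = 0.0325 and adjusted p = 0.879 from limma). Without C2, the highest library, it was at -0.51. MAFG followed at -0.49, or -0.16 without C2. NFE2L1, which encodes NRF1 and was named after its values were seen, was the 1 member above 0, with 187, 114 and 137 FPKM against 163, 177 and 200 FPKM, which overlapped (0.32).

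The other lists had medians between -0.16 and 0.16. Ubiquitin and E1 genes were below 0 in 3 of 6 rows (median -0.04), with UBB, a polyubiquitin gene, at -0.29 and UBA6, an E1 enzyme, at -0.18. Muscle ubiquitin ligases were below 0 for 6 of 13 (median 0.16), with FBXO40 and FBXO30 at 0.89 and 0.43, whose groups overlapped (FBXO40 was at 0.45 without C2 and 1.34 without C1). In 2 of these 13, against 6.14% of all genes, every control library lay above every pacing library: MDM2 at -0.31 and MUL1 at -0.39. Both were named after their values were seen. Genes of MHC class I presentation were below 0 for 7 of 9 (median -0.16, or -0.48 without C4), with the peptide-trimming enzymes ERAP1 at -0.59 and ERAP2 at 0.52. Calpain, lysosome and autophagy genes were below 0 for 5 of 11 (median 0.03), with CAPNS1, the small calpain subunit, at 0.29 and a row of CTSL, a lysosomal protease, at 0.20.

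Of the 15990 circRNAs counted in the same libraries, 20 (0.125%) were annotated to 9 proteasome genes, and 19 of these were exonic. They held 114 of the 182697 junction reads, 2, 11 and 22 in the controls and 17, 50 and 12 after pacing. Without P2, the reads of P1 and P3 summed to 29 and those of C1, C2 and C4 to 35, which are sums over unequal numbers of libraries. The pacing libraries were also deeper (28963 to 41299 junction reads, against 22987 to 24782). None of the 20 passed the study's thresholds of a 2-fold change and an unadjusted p of 0.05 with edgeR, where 1.02% of all circRNAs passed, and 0 passed with DESeq2. With edgeR, 0 of the 20 were at an unadjusted p under 0.05, and the smallest adjusted p was 0.401.

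PSMD1 gave 6 circRNAs with 59 reads and PSME4 gave 7 with 30 reads, and the other 7 hosts gave 1 each with 2 to 5 reads. The leading circRNA of PSMD1 (chromosome 25, 43027538 to 43028313, predicted length 253 nucleotides) had 0, 7 and 5 reads in the controls, and 0, 12 and 2 after pacing. Another of PSMD1 that starts upstream (43025296 to 43026859, predicted length 218 nucleotides) had 0, 2 and 5 reads, against 0, 12 and 2. Both had reads in C2, C4, P2 and P3 and none listed in C1 and P1, and their groups overlapped. Of the 20, 15 had reads in 1 library only, which was also the case for 70.2% of all circRNAs.

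A lncRNA transcript listed as intronic antisense to PSMD14 was the only 1 of 9610 annotated to a member, and it was listed at 0 in all 6 libraries.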

How the data were processed

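The authors trimmed reads with cutadapt 1.9.3, aligned them to canFam3 (their processing notes name HISAT2 and Bowtie2) and deposited 1 table for each RNA class. For mRNAs and lncRNAs the deposited unit is FPKM, which the authors computed with Cufflinks and Cuffdiff, with no options stated. The circRNA table holds counts of back-splice junction reads that the authors called one library at a time, in which no value of 1 occurs. The count columns that accompany the FPKM values and the normalized circRNA columns (18 in all) and the miRNA tables were not used.

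Differences between the groups in mRNAs were fitted by limma 3.58.1 (R 4.3.3, with intensity trend) to log2 of FPKM plus 1, for genes whose mean reached 1 FPKM, which understates changes of low genes, and p-values were adjusted by Benjamini-Hochberg over all genes tested. For circRNA counts the quasi-likelihood test of edgeR 4.0.16 was used after TMM scaling, with DESeq2 1.42.0 as an alternative. For lncRNAs the minimum mean was 0.3 FPKM. All tests were 2-sided, and no pairing or batch is stated or was modelled in the main tests. The code was tested on simulated data. The members, lists and tests were chosen with earlier results of these data known. Genes were described in full if they were among the 4 with the smallest p in each direction, catalytic or inducible beta subunits, activators or the inhibitor, or among the 2 highest or 2 lowest by mean; of the pathway lists, the 2 with the smallest p were named, except 1 that is not reported here. Others are given by class or as values noted afterwards. The symbols of all 44 rows were found in the RefSeq gene table.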

Additional observations from a re-analysis of the deposited data

How the results depend on the processing

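The median log2 fold change of the proteasome mRNAs stayed below 0 under every setting tried. It was -0.34 with C4 counted as pacing, and ran from -0.33 (without C4) to -0.13 (without C1) with each library left out. Its distance from the median of all genes was -0.18 with all 6 libraries as deposited and between -0.26 and -0.11 over the settings, a comparison chosen after seeing the data. No member passed the adjusted threshold under any setting. At an unadjusted p under 0.05, where 2 were lower, the count was 5 with no filter on low values (against 2.51% of all genes), 1 with medians aligned (3.32%), 1 with quantile normalization (3.46%), 1 without the intensity trend (2.71%), and from 1 to 4 with each library left out (from 0.985% without P3 to 12.7% without C4). Under these settings PSME3 was among those lower except with C4 counted as pacing, where they were PSMB2 and PSMD3 (against 14.2% of all genes). With C4 counted as pacing, every control library lay above every pacing library for 17 members, against 23.9% of all genes. The count of members whose groups do not overlap, for which the settings were added after the data were seen, was 4 with medians aligned, 2 with quantile normalization and from 12 to 24 with each library left out, the highest without C4, while the share of all genes ran from 7.85% without C1 to 26.7% without C4. Leaving out 1 library moved the log2 fold change by over 1.5 times for 31 of the 40 members, and for 27 without C1 and 23 without C4. The cause of these shifts was not tested.

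Of 556 values of the single genes described, 520 kept their direction and 36 reversed, all of genes that did not pass the test. PSMG3 was not among the genes counted here. The 520 include the settings that changed only the filter on low values or the intensity trend. These settings leave a log2 fold change as it is, so their values could not reverse. With quantile normalization the reversed log2 fold changes were 0.097 for PSMC2, 0.018 for PSMD8, 0.049 for PSMF1, 0.0071 for PSMD1, 0.054 for PSMD2, 0.095 for PSMB4 and 0.00030 for PSMB6. With medians aligned they were 0.0023 for PSMC2 and 0.030 for PSMB4. With C4 counted as pacing they were 0.047 for PSMC2, -0.018 for PSMB5, 0.030 for PSMD10, 0.018 for UCHL5, 0.0021 for UBA6 and -0.24 for CAPNS1. With each library left out the log2 fold change ran from -0.79 to 0.31 for PSMB8, from -0.56 to 0.20 for PSMB10, from -0.18 to 0.026 for PSMC2, from -0.30 to 0.0067 for PSMD8, from -0.35 to 0.056 for PSMF1, from -0.18 to 0.11 for PSME1, from -0.19 to 0.0011 for PSMD2, from -0.13 to 0.081 for PSMB4, from -0.34 to 0.034 for PSMD10, from -0.19 to 0.20 for PSMG2 and from -0.016 to 0.46 for CAPNS1.

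No circRNA of a proteasome gene passed under any setting, and filterByExpr left none of the 20 to test. The lncRNA gave no value to test, since it was listed at 0. The sample titles share no number between the groups, and of the column headers only the numbers 1 and 2 occur in both, with nothing that ties them to a pair. With these numbers as a replicate block, added after the data were seen and resting on 4 libraries, 0 members were lower at an unadjusted p under 0.05 (against 3.82% of all genes) and the median was -0.29. Deviations from the group means correlated across genes at -0.13 for C1 with P1 and -0.16 for C2 with P2. Across the numbers they correlated at 0.44 for C2 with P1 and -0.05 for C1 with P2. With 3 libraries a group, the 95% intervals of the log2 fold change reach -0.5 for 38 of the 40 members.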
